A study of Homo sapiens with 6 samples.

Results

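The 10 enzymes that carry glucose to pyruvate were examined as transcripts: HK2, GPI, PFKL, ALDOA, TPI1, GAPDH, PGK1, PGAM1, ENO1 and PKM, 1 for each step of glycolysis. They were chosen by function, with earlier results of these data known, as the gene symbols paired with the Ensembl identifiers of the count table, and they make up 10 of 61806 genes in that table. All 10 had enough counts to be tested, beside 19149 genes tested in all. mRNA of MV4-11 cells, a human acute myeloid leukaemia line with a monocytic character, was sequenced after a short hairpin RNA against ATGL (shATGL) or a control hairpin (shNC), with 3 libraries of each. ATGL is the triglyceride lipase encoded by PNPLA2, and the comparison asks which transcripts follow its knockdown. By a figure legend of the study the ATGL hairpins were delivered by lentivirus. Its methods name GFP to follow transduction and puromycin to choose stable cells, directly after the overexpression vectors. Whether both were used for the sequenced hairpin cells is not stated. The labels give neither the hairpin sequence nor whether the libraries came from separate cultures, and the p-values below therefore measure only the spread between these 6 samples, which may be technical.

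Glycolysis first spends ATP on glucose and later regains it. Hexokinase traps glucose as its 6-phosphate, phosphofructokinase commits the sugar to breakdown, aldolase cuts it into 3-carbon units, and the later enzymes oxidise those units and pass their phosphate to ADP. Lactate dehydrogenase then returns pyruvate to lactate and restores NAD+, a route that dividing leukaemia cells use heavily. Many of these genes respond together to hypoxia inducible factor, whose binding sites hold the core letters ACGTG or GCGTG.

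The total count per library ran from 59674064 to 74808280. Levels are given as CPM, the read count of a gene relative to the total of its library as scaled by the trimmed mean of M-values, and per kb of transcript where genes are compared with each other. PNPLA2 itself was at 101.1, 97.0 and 107 CPM in the shNC libraries and at 102, 98.1 and 104 CPM in those labelled shATGL. Its log2 fold change was -0.01 with a 95% interval of -0.15 to 0.14, so the targeted transcript was not lower in these libraries, and "shATGL" below means the libraries labelled so. Of 14 myeloid markers 13 had a mean over 1 CPM, with CD14 the exception, and their summed level was 3143 to 3316 CPM in shNC and 2932 to 3156 CPM in shATGL. The B cell markers CD79A and PAX5 were over 1 CPM, and no T cell, erythroid, megakaryocyte, epithelial, fibroblast or liver marker had a mean over 1 CPM.

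Promoter sequences of RefSeq (build GRCh38.p14) were found for all 10 enzymes, with 14 start sites because HK2, ALDOA and TPI1 have several. In the 250 bases before a start, ACGTG or GCGTG on either strand stood in 11 of the 14 windows. These windows belong to 8 of the 10 enzymes, the exceptions being PGAM1 and PKM. Over all 35116 promoters of the same length, counted window by window, 43.2% hold at least 1 of these cores. ACGTG is in 18.5% of them and in 9 of the 14 windows here, and GCGTG in 32.2% and in 6 of the 14. The full E-box CACGTG, which holds ACGTG on both strands, stood in 3 of the 14 windows (HK2, ALDOA and GAPDH) and in 6.34% of all promoters. The GC box GGGCGG stood in 11 of the 14 windows and in 42.6% of all promoters. Its windows belong to 9 of the 10 enzymes, all but GPI. The stretches below are those of at least 150 bases that no annotated exon covers, each 5′ to 3′ with both cores in capitals (CACGT and CACGC are the same cores read on the other strand). No window of the other enzymes held such a stretch. The fitted differences of the enzymes shown, described below, ran from TPI1 (-0.24 on the log2 scale) through ALDOA and PGK1 to HK2 (-0.03) and PFKL (0.06). None of these passed the test, and a link between them and the letters was not tested.
HK2, at the second start, chr2:74834920-74835169, plus strand: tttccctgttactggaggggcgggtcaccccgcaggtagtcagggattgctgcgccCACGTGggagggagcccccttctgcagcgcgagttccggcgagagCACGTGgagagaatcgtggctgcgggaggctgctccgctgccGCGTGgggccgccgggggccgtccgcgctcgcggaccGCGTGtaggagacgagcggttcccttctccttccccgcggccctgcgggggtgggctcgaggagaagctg
PFKL, chr21:44299803-44300050, plus strand: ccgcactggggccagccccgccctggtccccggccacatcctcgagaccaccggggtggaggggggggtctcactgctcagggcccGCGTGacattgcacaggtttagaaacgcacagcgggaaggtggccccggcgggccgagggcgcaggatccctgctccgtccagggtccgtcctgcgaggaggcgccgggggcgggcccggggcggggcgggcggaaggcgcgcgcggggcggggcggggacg
ALDOA, at the third start, chr16:30065510-30065672, plus strand: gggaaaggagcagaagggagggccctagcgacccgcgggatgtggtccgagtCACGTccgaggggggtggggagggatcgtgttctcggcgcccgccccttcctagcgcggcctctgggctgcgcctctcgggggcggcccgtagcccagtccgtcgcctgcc
TPI1, at the second start, chr12:6867855-6868099, plus strand: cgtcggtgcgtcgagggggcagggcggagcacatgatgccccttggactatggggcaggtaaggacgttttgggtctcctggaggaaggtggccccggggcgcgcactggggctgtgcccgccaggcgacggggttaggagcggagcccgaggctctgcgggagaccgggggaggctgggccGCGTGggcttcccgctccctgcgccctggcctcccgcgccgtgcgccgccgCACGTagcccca
PGK1, chrX:78103998-78104173, plus strand: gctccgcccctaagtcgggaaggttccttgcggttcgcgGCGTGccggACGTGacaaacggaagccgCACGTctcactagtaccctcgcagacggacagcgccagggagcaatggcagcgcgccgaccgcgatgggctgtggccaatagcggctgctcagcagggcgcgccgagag
The HK2 stretch held 2 whole E-boxes and 2 further GCGTG cores, and that of PGK1 held cores 211, 202 and 183 bases before the start. PFKL had a single core at 164 bases, TPI1 had one at 68 and one at 17 bases, and ALDOA had one at 198 bases. These matches are descriptions of letters and not sites of binding.

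The steps differed far more from each other than either group differed from the other. Per kb of transcript, GAPDH, which oxidises glyceraldehyde 3-phosphate, was the most abundant at 1917 ± 160.2 CPM per kb (SD, n = 3) in shNC. ENO1, the enolase that forms phosphoenolpyruvate, followed at 1510.1 ± 93.4 CPM per kb, and its range over the 6 libraries overlapped that of GAPDH. The aldolase ALDOA came next at 1090.0 ± 53.0 CPM per kb, and PGAM1, the mutase that moves the phosphate of 3-phosphoglycerate, at 449 ± 20.8 CPM per kb. TPI1, which interconverts the 3-carbon sugars, and the pyruvate kinase PKM were level with each other at 340 ± 29.6 and 338 ± 14.3 CPM per kb. GPI, the isomerase of glucose 6-phosphate, was at 215 ± 6.95 CPM per kb and PGK1, the kinase that forms the first ATP, at 171 ± 7.98 CPM per kb. The phosphofructokinase PFKL was at 87.4 ± 2.07 CPM per kb, and the hexokinase HK2 was last at 6.0 ± 0.28 CPM per kb, 319-fold below GAPDH. Only GAPDH with ENO1 and TPI1 with PKM overlapped in range among neighbours of this order. The place of PGK1 rests on its annotated transcript of 4887 bases. With the joined length of all annotated exons it moved up to rank 6, PKM fell to rank 7 and GPI to rank 8, and the other ranks stayed.

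**Figure D1:**
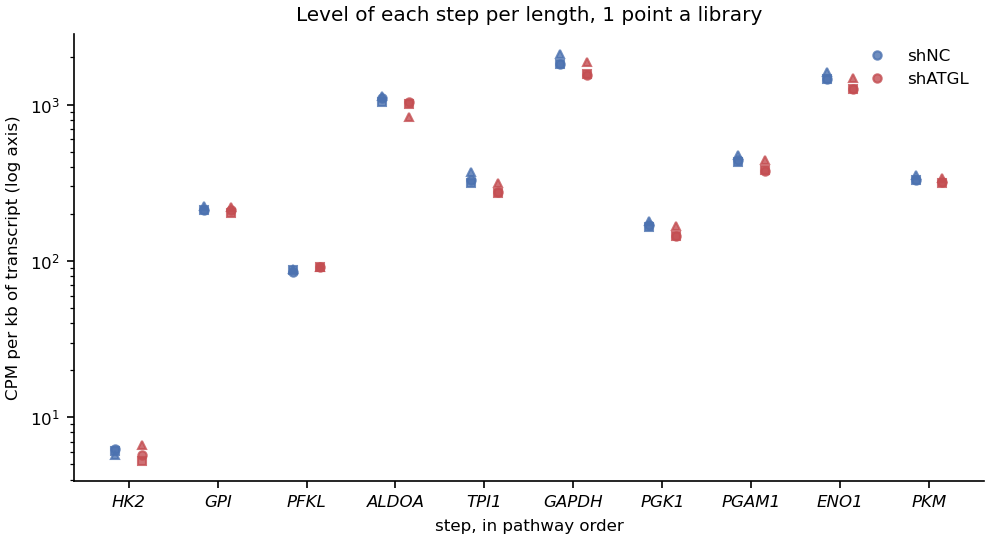
Level of each enzyme in pathway order, as CPM per kb of transcript on a log axis, with 1 point a library (circle, square and triangle for libraries 1, 2 and 3), blue for shNC and red for shATGL. GAPDH, ENO1 and ALDOA stood highest, HK2 was 319-fold below GAPDH, and the gap between the colours was small beside the gaps between steps.

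HK2 and PFKL were not the dominant forms of their steps. HK2 was at 36.1, 34.9 and 32.9 CPM in shNC, while HK1, the housekeeping hexokinase, was at 38.8, 36.4 and 41.5 CPM and HK3, the hexokinase of myeloid cells, at 39.0, 40.3 and 38.1 CPM. Among these hexokinases, per kb, HK2 held 18.9% to 21.4% over the 6 libraries, HK1 34.5% to 38.9% and HK3 40.1% to 44.8%, and the ranges did not overlap. ADPGK, which phosphorylates glucose with ADP in place of ATP, was at 160.0, 157 and 158 CPM in shNC. With ADPGK counted, HK2 held 6.56% ± 0.29 (SD, n = 3) of the step in shNC, HK1 11.8% ± 0.73, HK3 13.9% ± 0.48 and ADPGK 67.7% ± 0.08. HKDC1, a further hexokinase, had 0 counts in every library.

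At the phosphofructokinase step PFKL, the liver type, shared the transcripts about equally with PFKP, the platelet type. PFKL held 50.2% ± 0.47 (SD, n = 3) of the step per kb in shNC and 51.4% ± 1.72 in shATGL, and PFKP held 49.6% ± 0.49 and 48.3% ± 1.73. PFKP was at 225, 233 and 229 CPM in shNC and at 219.9, 216 and 246 CPM in shATGL. PFKM, the muscle type, held 0.25% of the step. No difference in these shares between the groups passed the exact two-sided permutation test, whose smallest possible p here is 0.1: p = 1 for HK2 and p = 0.4 for PFKL, both adjusted to 0.8 or above over the 8 steps that have isoenzymes. For the other steps the listed enzyme did dominate, since ALDOA, GAPDH, PGK1, PGAM1, ENO1 and PKM each held 98.7% or more of their step in every library. The remaining isoenzymes over 1 CPM were ALDOC at a mean of 12.6 CPM in shNC, ENO3 at 8.80 CPM and PGAM4 at 3.82 CPM, while PGK2, PGAM2, ENO4 and PKLR had 0 counts. ENO2 was at 0.87 CPM in shNC and 1.11 CPM in shATGL.

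None of the 10 enzymes was called in shATGL against shNC at an adjusted p under 0.05 and a fold of at least 2, the study's thresholds. In edgeR's quasi-likelihood test, 0.00522% of all genes tested were called. With all 6 libraries, no enzyme had an adjusted p under 0.05 at any fold in edgeR or DESeq2, while 1 had an unadjusted p under 0.05 in edgeR and limma with quality weights gave 5 by adjusted p, as described below. Of the 10, 9 had a log2 fold change below 0, beside 48.1% of all genes tested, and PFKL alone lay above 0. Their median log2 fold change was -0.17, beside 0.01 over all genes tested. Abundant genes as a whole also lay lower: of the 2126 genes tested with a mean of 100 CPM or more, which include all the enzymes but HK2, 67.5% lay below 0, with a median of -0.06. The part of abundance in the values of the enzymes was not tested.

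The 3 enzymes of the upper steps before aldolase were nearly level. HK2 in shATGL was at 33.4, 30.5 and 38.2 CPM, which span the shNC values, and its log2 fold change was -0.03 with a 95% interval of -0.26 to 0.21 and an adjusted p of 0.937. GPI was at 433, 429.7 and 456 CPM in shNC and at 429, 415 and 449 CPM in shATGL. The groups overlapped, and the log2 fold change was -0.03 with an interval of -0.16 to 0.10 and an adjusted p of 0.863.

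PFKL was at 248, 256 and 260.1 CPM in shNC and at 265, 265 and 265 CPM in shATGL. All 3 shATGL values were above all shNC values, as for 7.93% of genes tested, and the shATGL libraries differed from each other by less than 1 CPM. The size was small, with a log2 fold change of 0.06, an interval of -0.06 to 0.18 and an adjusted p of 0.660. It was above 0 in all 17 fits made, from 0.01 to 0.08.

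TPI1 lay lowest of the 10. Its shNC libraries were at 407, 389 and 459 CPM, and its shATGL libraries at 339, 334 and 388 CPM. The groups did not overlap, as for 9.38% of genes tested in the lower direction, although the highest shATGL library (388.2) came within 1 CPM of the lowest shNC library (388.5). The fitted level in shATGL was 84.6% of shNC, with a 95% interval of 73.6% to 97.3% and a log2 fold change of -0.24 ± 0.09 (SE). Its adjusted p in edgeR's quasi-likelihood test was 0.396. The unadjusted value was 0.0251, and of the enzymes TPI1 alone lay lower with an unadjusted value under 0.05. So did 5.94% of all genes tested and 18.25% of the 2126 with a mean of 100 CPM or more, to which TPI1 belongs. Reads of its 4 pseudogenes, of which TPI1P1 held the most, came to 0.95% to 1.29% of its counts.

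The later enzymes from GAPDH to ENO1 gave values close to each other. GAPDH was at 2289.8, 2293 and 2639.8 CPM in shNC and at 1927, 1963 and 2335 CPM in shATGL. The values of shATGL 1 and shATGL 2 were below every control, and that of shATGL 3 was above shNC 1 and shNC 2. GAPDH had a log2 fold change of -0.21 ± 0.09 (SE), an interval of -0.43 to 0.00 and an adjusted p of 0.427.

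PGK1 was at 831, 802 and 879.6 CPM in shNC and at 707, 708 and 819 CPM in shATGL. PGAM1 was at 813, 790.1 and 864 CPM in shNC and at 689.5, 694 and 805 CPM in shATGL. ENO1 was at 2581, 2607 and 2881 CPM in shNC and at 2248, 2238 and 2621 CPM in shATGL. In each of these the first and second shATGL libraries were below every control, and shATGL 3 was above at least 1 control. Their log2 fold changes were -0.17 ± 0.07, -0.17 ± 0.08 and -0.18 ± 0.08 (SE), with adjusted p values of 0.429, 0.429 and 0.428 in edgeR's test.

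PKM, at the last step, was at 767, 762 and 822 CPM in shNC and at 737, 726 and 787 CPM in shATGL. It was nearer to level than the enzymes just before it, with a log2 fold change of -0.06, an interval of -0.20 to 0.07 and an adjusted p of 0.676. The table counts genes, so the alternatively spliced forms of PKM could not be told apart.

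**Figure D2:**
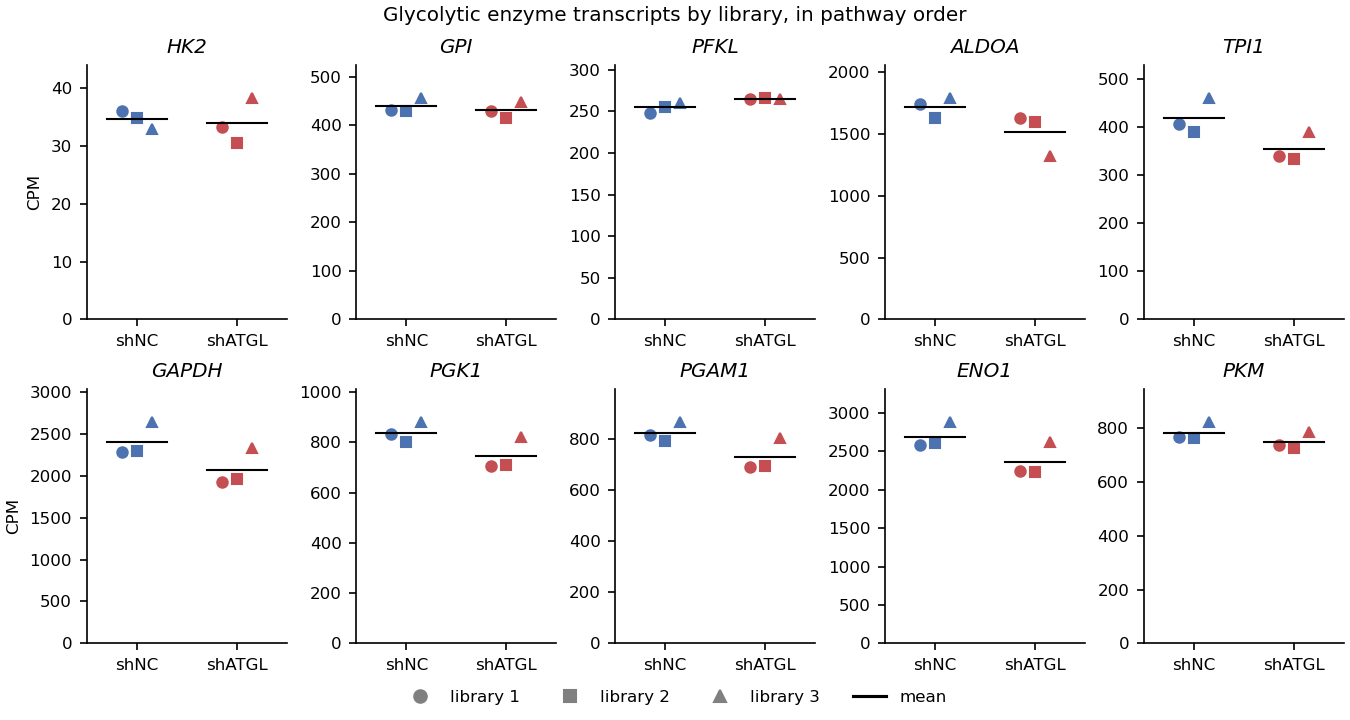
Level of the 10 enzymes in pathway order, as CPM on axes that start at 0, with 1 point a library (circle, square and triangle for libraries 1, 2 and 3; blue, shNC; red, shATGL; line, group mean). For TPI1, GAPDH, PGK1, PGAM1 and ENO1 the circle and square of shATGL lay below all shNC points and the triangle of shATGL lay close to the shNC points.

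The number of enzymes with an adjusted p under 0.05 depended on whether shATGL 3 was kept and on whether the fit weighted the libraries. shNC 3 held the highest value of 8 of the 10 enzymes, shATGL 2 held the lowest value of 5 and shATGL 1 that of 3. Summed over the 10 enzymes the shNC libraries were at 10152, 9990 and 11084 CPM, and the shATGL libraries at 9004, 8971 and 9829 CPM. In this sum shATGL 3 lay just under shNC 2. The library numbered 3 was the highest of either group, and each shATGL library lay below the shNC library of the same number. The 10 enzymes together took 0.918% to 1.07% of all counts.

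Without shATGL 3, edgeR gave an adjusted p under 0.05 for 5 of the 10 enzymes, all lower, beside 6.07% of all genes tested. On the log2 scale TPI1 then stood at -0.31 and GAPDH at -0.31, with adjusted p values of 0.0281 and 0.0235. ENO1 stood at -0.26, PGAM1 at -0.25 and PGK1 at -0.25, with adjusted p values of 0.0206, 0.0181 and 0.0194. These levels are 80.4% to 84.3% of shNC, and none reaches a fold of 2. HK2, GPI, PFKL, ALDOA and PKM had adjusted p values of 0.208 or above in the same fit. Limma voom with a quality weight for each library, which keeps all 6, gave an adjusted p under 0.05 for TPI1, GAPDH, ENO1, PGAM1 and PGK1 too (0.0294 to 0.0333), beside 5.27% of all genes tested. For neither fit is the share among abundant genes given, so these shares of all genes do not allow for abundance. In the other 15 of the 17 fits no enzyme had one. These include the edgeR fit with a replicate block, which compares libraries of the same number. There the SE of GAPDH was 0.03, against 0.09 without the block, and its adjusted p was 0.0897. The p-values given gene by gene above take no account of such pairing. A further fit, with the ALDOA locus summed and shATGL 3 left out, gave adjusted p values of 0.0180 to 0.0279 for TPI1, GAPDH, ENO1, PGAM1 and PGK1. The lower log2 fold changes of these 5 enzymes kept their sign in all 17 fits.

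**Figure D3:**
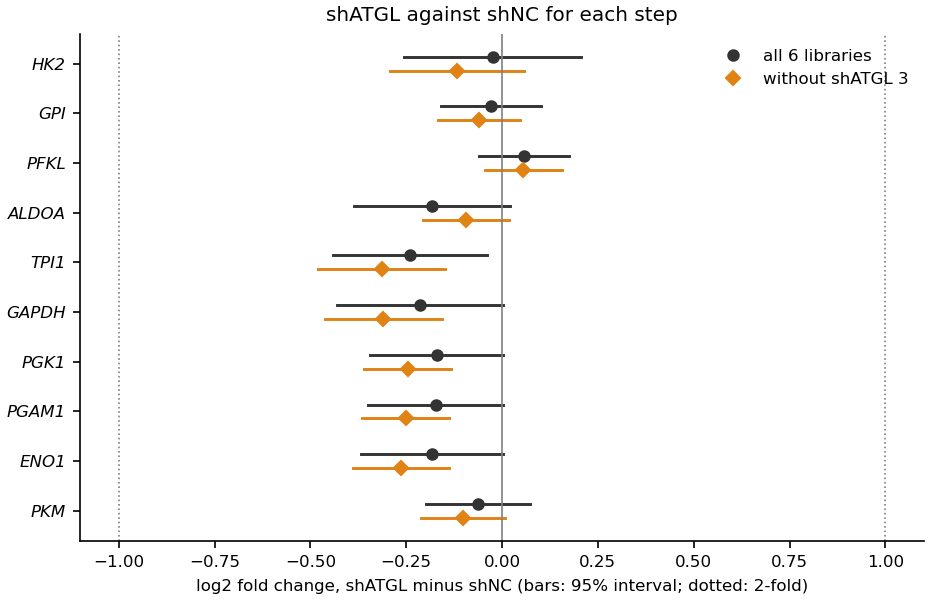
Log2 fold change of shATGL minus shNC for each enzyme in pathway order, with 95% intervals as bars, from all 6 libraries (black circles) and without shATGL 3 (orange diamonds). The dotted lines mark a 2-fold change, which no interval reaches. Leaving out shATGL 3 moved TPI1, GAPDH, PGK1, PGAM1 and ENO1 further below 0 and moved ALDOA towards 0.

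ALDOA was the exception in which shATGL 3 was the low library. It was at 1746, 1628 and 1789 CPM in shNC and at 1631, 1597 and 1323 CPM in shATGL, with a log2 fold change of -0.18, an interval of -0.39 to 0.02 and an adjusted p of 0.456. A second protein-coding gene, ENSG00000285043, lies on the same strand of chromosome 16 (30053090 to 30070420, GRCh38) and overlaps ALDOA (30064164 to 30070457). It received 120, 217 and 218 CPM in shNC and 119, 208 and 538 CPM in shATGL, so that its highest value was in the library where ALDOA was lowest.

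Of the counts given to either gene, ENSG00000285043 held 6.41%, 11.8% and 10.8% in shNC and 6.82%, 11.5% and 28.9% in shATGL. The sum of the 2 genes was steadier, at 1866, 1845 and 2007 CPM in shNC and at 1749.9, 1806 and 1861 CPM in shATGL. Its coefficient of variation over the 6 libraries was 4.62%, against 10.1% for ALDOA alone. The mean of the sum was 1906 ± 87.9 (SD, n = 3) in shNC and 1805 ± 55.5 in shATGL (exact two-sided permutation test, p = 0.2). With both counted together, a choice made after seeing the data, the log2 fold change of ALDOA was -0.08 ± 0.06 (SE) with an adjusted p of 0.581. How the reads of the shared exons were assigned is not given in the sources used here, so the level of ALDOA alone is uncertain.

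The other overlaps were small. PGK1 as annotated spans ATP7A and, on the opposite strand, PGAM4, whose counts came to at most 0.77% and 0.56% of its own. These overlaps are of whole gene spans, and whether exons are shared was not examined. Since the strand setting of the counting is not given, reads from any exon stretch shared by PGK1 and PGAM4 may not have been told apart. The same holds for TPI1 and SPSB2 (at most 1.32%) and for HK2 and HK2-DT (5.10% to 9.05%). The 65 annotated pseudogenes of GAPDH, led by GAPDHP1, together held at most 0.17% of its counts.

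GAPDH matters as a measure too, because the study used it as the reference in RT-qPCR and on blots. Read against GAPDH, PNPLA2 was higher in shATGL: the log2 ratio of their counts was -4.50, -4.56 and -4.62 in shNC and -4.23, -4.32 and -4.49 in shATGL. The groups did not overlap, and the ratio in shATGL was 115.9% of that in shNC (exact two-sided permutation test, p = 0.1, the smallest it can give). Since PNPLA2 itself was level, at -0.01 on the log2 scale, the ratio restates the GAPDH value of -0.21 with its sign turned. It is no further result on PNPLA2. With ACTB in place of GAPDH the difference was 0.07 on the log2 scale (p = 0.4, exact). Over the 6 libraries the highest GAPDH level was 1.37 times the lowest, which ranked 6 of 14 reference genes by the SD of log2 CPM, with RPL13A the most variable and GUSB the least. Of the 13 other reference genes, 11 lay below 0. RPL13A at -0.29, PPIA at -0.25 and RPLP0 at -0.25 had an unadjusted p under 0.05, each with an adjusted p of 0.392 or above. ACTB was at -0.08.

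Lists of genes around the pathway were read beside the enzymes. With all 6 libraries, edgeR gave none of their 106 tested genes an adjusted p under 0.05, and DESeq2 gave none. Without shATGL 3, edgeR gave 14 lower and 8 higher, beside 6.07% and 7.94% of all genes tested. Limma with quality weights gave 9 lower and 1 higher, beside 5.27% and 5.57%. Among glucose and lactate transporters, 6 of 12 lay below 0, with a median of -0.03. BSG, the chaperone of lactate transporters, was at -0.13, the glucose carrier SLC2A1 at -0.07 and the lactate exporter SLC16A3 at -0.08. Among the 10 isoenzymes tested, 4 lay below 0, with a median of 0.00.

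LDHA, the lactate dehydrogenase subunit that favours lactate, was at 886, 856 and 917 CPM in shNC and at 803, 800.4 and 809 CPM in shATGL. The groups did not overlap, and shATGL 3 lay with the other shATGL libraries. Its log2 fold change was -0.14 ± 0.05 (SE), with an interval of -0.26 to -0.02 and an adjusted p of 0.395. In limma with quality weights its adjusted p was 0.0405, the lowest of the 17 fits, and in the other 16 it ran from 0.0648 to 0.837. Of 18 tested genes of lactate dehydrogenase and pyruvate entry, 13 lay below 0, with a median of -0.05 that was -0.02 without shNC 1, and 3 had an unadjusted p under 0.05, all lower: LDHA, the pyruvate carrier subunit MPC2 (-0.20) and the pyruvate dehydrogenase subunit PDHB (-0.18). LDHB was at -0.16 and DLD, the third most abundant of the list by mean CPM, at 0.20.

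In the pentose phosphate pathway, which leaves glycolysis after hexokinase and returns at the 3-carbon sugars, 8 of 9 genes lay below 0, with a median of -0.17, the same to 2 decimals as that of the glycolytic enzymes. PGLS, the lactonase, was at -0.20 and RPIA, the ribose 5-phosphate isomerase, at -0.22, both with an unadjusted p under 0.05 and adjusted p values of 0.396 and 0.392. The abundant TALDO1, TKT and PGD were at -0.23, -0.07 and -0.17. Of 9 flux regulators tested 7 lay below 0, with a median of -0.08; the most abundant, G6PC3, PFKFB3 and PCK2, were at -0.11, -0.04 and -0.02. Of the 10 glycogen genes 4 lay below 0 (median 0.03), and of the 5 genes of the glycerol 3-phosphate branch, which feeds triglyceride synthesis from glycolysis, 3 did (median -0.08). The glycogen phosphorylase PYGL was at -0.03, the synthase GYS1 at 0.03 and UGP2 at 0.16, and GPD2, PGP and GK of the glycerol branch were at 0.01, -0.16 and -0.09.

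Transcripts of the factors that regulate these enzymes gave no common direction. Of 11 tested hypoxia and glucose sensing factors 6 lay below 0, with a median of -0.04 that was 0.02 without shNC 2, and only MLXIP, a glucose sensing partner of MLX, had an unadjusted p under 0.05, at 0.20 (adjusted p = 0.392). HIF1A, the oxygen-regulated subunit, had a mean of 57.8 CPM in shNC (SD 11.0) and of 75.2 CPM in shATGL (SD 23.5), and the groups overlapped. Without shATGL 3, HIF1A and MLXIPL were higher and MLX and VHL lower with an adjusted p under 0.05. TXNIP, ARNT and EGLN1, the most abundant of the list, were at -0.07, -0.04 and 0.03. Of 9 other hypoxia targets 4 lay below 0 (median 0.01). ANKRD37, at 1.17 CPM in shNC and 0.71 CPM in shATGL, was the only one with an unadjusted p under 0.05 (log2 fold change -0.72, adjusted p = 0.397), while MXI1, KDM3A and P4HA1, the most abundant, were at -0.18, 0.05 and -0.07.

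Over the 6 libraries the mean profile of the 10 enzymes, as log2 CPM centred on each gene's own mean, was nearest to that of SCAMP2, ATOX1, HSPB1, RBM3 and UBE2S among 9287 other genes with a mean of 10 CPM or more. Their root mean square distance from it was 0.011 to 0.013 on the log2 scale, less than that of any of the 10 enzymes, where PKM was nearest (0.032) and ALDOA farthest (0.14). All 5 lay below 0 in shATGL, by 0.11 to 0.14. Their small distance, sign and size follow from the search, which picked genes for likeness to a profile that is itself lower in shATGL. With 6 libraries as the only points, the likeness is a description.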

How the data were processed

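mRNA of 6 MV4-11 samples (3 shNC, 3 shATGL) was sequenced, and the authors deposited 1 table of raw read counts per gene with no normalization. The aligner, counter and strand setting are not given in the sources used here. The submitters' processing notes name the mouse build mm10, although the identifiers are human Ensembl genes. Groups came from the sample labels. Symbols were taken from the gene name table, and positions, lengths and overlaps from GENCODE 29 (GRCh38), which matched 58254 of 61806 identifiers. The enzymes and the gene lists were chosen with earlier results of these data known. Counts were fitted with edgeR 4.0.16 (R 4.3.3) after filterByExpr with a minimum count of 10 and TMM. Its quasi-likelihood test was used, with Benjamini-Hochberg adjustment over all genes tested. On simulated counts with 200 genes changed 2.5-fold, this fit recovered 127 of them at the study's thresholds, with 9 false calls. The study itself used DESeq2, which was run as an alternative with limma 3.58.1. The text names the 10 enzymes, PNPLA2, LDHA, of each list the genes with an unadjusted p under 0.05 and the 3 most abundant, isoenzymes over 1 CPM, and the 5 genes nearest in profile; other genes were named after their values were seen. Per-kb levels used the median-length principal transcript. The intervals cover the spread between libraries, and at the lowest enzyme count of 2077 reads counting error is small. Some genes of the lists are not reported here.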

Additional observations from a re-analysis of the deposited data

How the results depend on the processing

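No enzyme was called at a fold of at least 2 under any alternative, and the number lying below 0 was 8 or 9 of 10 throughout. Leaving out 1 library at a time, the number with an adjusted p under 0.05 ran from 0 to 5, the 5 arising without shATGL 3, and the median log2 fold change from -0.18 to -0.13. Limma voom with quality weights also gave 5. HK2 ran from -0.12 to 0.047 when 1 library was left out, and it was above 0 without shNC 1, shNC 2 or shATGL 2. Among the other lists, leaving out 1 library at a time moved the median of hypoxia and glucose sensing factors between -0.03 and 0.02, of lactate dehydrogenase and pyruvate entry between -0.08 and -0.02, of isoenzymes between -0.04 and 0.05, and of glycogen between -0.01 and 0.04. With length and GC trends removed these medians were -0.12, -0.16, -0.02 and -0.04, and those of the glycerol branch and the other hypoxia targets were -0.18 and -0.07. PNPLA2 relative to GAPDH stayed above 0, between 0.15 and 0.28 when 1 library was left out. With the replicate block, the median of the enzymes was -0.17, 0 had an adjusted p under 0.05, and GAPDH, TPI1 and ENO1 had 0.0897, 0.0922 and 0.0941. The unadjusted p values of GAPDH, TPI1, ENO1, PGAM1 and PGK1 in that fit ran from 0.000383 to 0.00481, with intervals below 0. Deviations of same-numbered libraries correlated at 0.05, 0.19 and 0.29 over the 19149 genes tested, and at 0.16, 0.40 and 0.50 over the 9297 with a mean of 10 CPM or more, and the labels do not say what a number marks. The main fit took no block, because the numbers have no stated meaning and number 1 lay under 0.1 over the genes tested. Over the more abundant genes each pair exceeded 0.1. There shNC 3 correlated at -0.41 with shATGL 1 and at -0.46 with shATGL 2, while shNC 2 correlated at 0.32 with shATGL 1. The libraries numbered 3 thus deviated together, and the unblocked fit counts that shared deviation as spread. The SE of GAPDH was 0.09 without the block and 0.03 with it. Log2 fold change rose with transcript length across genes (Spearman 0.20 over 18566 genes, which are not independent). With length and GC trends removed it was 0.06, the median of the enzymes stayed at -0.17, and none had an adjusted p under 0.05. Shares not divided by length were 12.7% for HK2 and 53.1% for PFKL. With 3 libraries a group, the permutation test cannot give a p under 0.1.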
